A study of Sus scrofa with 18 samples.

Results

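Tumours that bear the mouth label in a double knock-in (DIK) pig were compared with normal wild-type (WT) tissue under the same label, across all genes that passed a filter on low counts. The comparison uses 6 of the 18 libraries of the series, 3 DIK tumours and 3 WT tissues, chosen by their labels alone. DIK pigs carry the elements of the Tet-on system, which doxycycline switches on, and of the phiC31 integrase. DIK founders and WT pigs received doxycycline at the age of 7 months, and their tissue was sampled after 8 more months. All 3 DIK libraries come from tumours of 1 founder, so they stand for 1 animal. How many WT pigs gave the 3 WT libraries was not given in the sources used here. The p-values therefore cover the spread among libraries alone, which was estimated from all 18 libraries of the series, and part of it may be technical.

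The lining of the mouth and the skin is a stratified squamous epithelium. Its basal keratinocytes divide and are anchored to the basement membrane, and their daughters change keratins as they move up, join through desmosomes and finally cross-link a cornified envelope. Squamous tumours arise from this epithelium. Smooth muscle, in contrast, is built from contractile actin and myosin under the control of the coactivator myocardin.

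The total count was 3033987, 3940709 and 3565282 in the DIK libraries, against 4569463, 4790537 and 3317346 in the WT libraries. At these depths 3 counts correspond to 0.729 to 0.949 CPM (scaled counts per 1000000) in DIK tumours and 0.483 to 0.787 CPM in WT tissue. KRT5 held the most counts in each DIK library, and ACTA2, smooth muscle actin, in each WT library. A list of keratins took 10.5%, 11% and 11% of the counts in DIK tumours, against 0.224%, 0.0333% and 0.0501% in WT tissue. A list of 25 smooth muscle genes took 0.526%, 0.606% and 0.511% in DIK tumours, against 15.8%, 26.2% and 24.4% in WT tissue. The tumours were therefore rich in keratinocyte RNA and the WT tissue in smooth muscle RNA, and the WT libraries were not matched for epithelium. In bulk tissue, fewer cells of a type and less RNA per cell cannot be told apart.

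The label of the tissue was checked against genes of position along the body and of other tissues. HOX genes of the posterior groups, whose activity marks the trunk and not the head, summed to 11.7, 20.4 and 18.7 CPM in DIK tumours, against 42.2, 70.8 and 66.9 CPM in WT tissue, while the other 12 libraries held 0.625 to 6.83 CPM. HOX genes of the anterior and middle groups were also higher at this label, with 8.54, 15.5 and 14.9 CPM in DIK tumours, against 34.8, 37.8 and 32.8 CPM in WT tissue, and 0.715 to 6.21 CPM in the other 12 libraries. The mouth label therefore goes with more HOX RNA of both kinds than the other labels do, and the groups are called here by their label only. WT replicate 1 also held gland RNA, since a list of salivary and mucous gland genes took 1.62% of its counts, against 0.0429% and 0.0493% in WT replicates 2 and 3 and 0.0454% to 0.0732% in DIK tumours. WT replicates 1 and 2 held transcripts of plasma proteins that the liver makes, such as ALB (albumin) at 152, 171 and 2.1 CPM in the 3 WT libraries and 0, 0 and 0 CPM in DIK tumours. Outside the mouth label, WT replicate 2 labelled scrotum held epidermal RNA, with keratins of the upper layers at 48324 CPM, against 314 and 86.5 CPM in the other 2 WT libraries of that label, and all 18 libraries share the estimate of spread. Without it 6705 of 13334 genes (50.3%) were called at the mouth label, among them 6032 of the 6054 calls made with it, the adjusted p of KRT10 was 1.1e-05, against 0.0126, and LCN2 was not called (adjusted p 0.0589).

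The table holds 27339 genes. Of these 12895 were tested, and 6054 (46.9%) were called at an adjusted p under 0.05 by the quasi-likelihood test of edgeR. Among the calls, 2921 (22.7% of those tested) were higher and 3133 (24.3%) lower in DIK tumours. With libraries scaled by their totals alone, the calls were 2118 higher and 3754 lower, so 36.1% of calls were higher in DIK tumours, against 48.2% with the main scaling, and the median difference of all genes was -0.29 on the log2 scale, against -0.04. The differences were large: 552 called genes were at least 16-fold higher and 638 at least 16-fold lower. In 7569 genes (58.7%) the 3 DIK libraries did not overlap with the 3 WT libraries. A list of genes is read below against these shares, which are high.

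Basal keratinocyte genes were mostly higher in DIK tumours. Of 15 tested members of that list 12 rose and 1 fell, against 22.7% and 24.3% of all genes tested, and the median log2 difference was 4.44, against -0.04 for all genes. TP63, the transcription factor that sets up the squamous lineage, had 81, 55.9 and 66.4 CPM in DIK tumours, against 1.77, 0 and 0.262 CPM in WT tissue. The groups did not overlap, and the log2 difference was 6.46 ± 0.81 (8.86 without WT replicate 1, and 5.86 without WT replicate 2), with an adjusted p of 1.59e-05. KRT5, the keratin of the basal layer, had 39048, 44208 and 48162 CPM in DIK tumours, against 1292, 82.3 and 105 CPM in WT tissue, the gene with the most counts in each tumour. WT replicate 1 stood well above the other WT libraries and still below all tumours, and the log2 difference was 6.47 ± 1.57 (8.82 without WT replicate 1, adjusted p with all libraries 0.00363).

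Parts of the hemidesmosome, which ties basal cells to the basement membrane, were also higher. ITGA6, an integrin subunit, had 749, 425 and 638 CPM in DIK tumours, against 101, 40.3 and 37 CPM in WT tissue, a log2 difference of 3.35 ± 0.60 (adjusted p 0.000209). Its partner ITGB4 was higher by 2.23 ± 0.40 and the transmembrane collagen COL17A1 by 6.79 ± 1.56 (8.57 without WT replicate 1). Of the laminin chains that form the ligand of that integrin, LAMB3 rose by 5.35 ± 1.14 (7.27 without WT replicate 1) and LAMA3 by 3.14 ± 0.48 (4.02 without WT replicate 1). The single member that fell was DST, a plakin with forms in muscle and nerve as well as in epithelium, at 55.4, 59 and 85 CPM in DIK tumours, against 96.1, 153 and 123 CPM in WT tissue, a log2 difference of -0.90 ± 0.25. KRT15, a keratin of basal and gland duct cells, had 119, 289 and 65 CPM in DIK tumours, against 208, 2.61 and 1.57 CPM in WT tissue, with WT replicate 1 inside the range of the tumours, and the call depends on that library, with a log2 difference of 1.15 ± 1.81 (6.14 and called without WT replicate 1).

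Keratins of the layers above the basal one were also higher. Of 7 tested members 6 rose and none fell, with a median log2 difference of 7.21. KRT6A, a keratin of regenerating and oral epithelium, had 36363, 33644 and 31966 CPM in DIK tumours, against 57.9, 37.6 and 53.2 CPM in WT tissue, a log2 difference of 9.42 ± 1.33 (adjusted p 3.26e-05). KRT1, the keratin of cells that are about to cornify, had 14686, 15707 and 14290.0 CPM in DIK tumours, against 23.3, 49.2 and 83.7 CPM in WT tissue, and its partner KRT10 had 10204, 10779 and 9329.9 CPM in DIK tumours, against 41.7, 82.8 and 152 CPM in WT tissue. Both were higher in every tumour than in any WT tissue, by log2 differences of 8.16 ± 2.4 and 6.78 ± 1.98. KRT4, a keratin of mucosa such as that of the mouth, had 166, 268 and 217 CPM in DIK tumours, against 1.61, 1.57 and 1.05 CPM in WT tissue, a log2 difference of 7.21 ± 1.17. KRT2, a keratin of the uppermost living layer in skin, was low in both groups, at 2.53, 1.46 and 3.47 CPM in DIK tumours, against 1.29, 4.71 and 5.77 CPM in WT tissue, and did not pass the test.

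Genes of the cornified envelope were higher in all tumours. Of 17 tested members of its list 16 rose, with a median log2 difference of 7.73. CASP14, a protease that acts only in cornifying keratinocytes, had 713, 1506 and 489 CPM in DIK tumours, against 0.322, 0.697 and 0.787 CPM in WT tissue, a log2 difference of 10.52 ± 1.82 (adjusted p 0.000425). LOR, the main protein of the envelope in skin, had 167, 477 and 260.4 CPM in DIK tumours, against 0.483, 1.05 and 2.89 CPM in WT tissue, and SBSN, a secreted protein of the upper layers, had 1875, 2579 and 1873 CPM in DIK tumours, against 5.15, 2.96 and 3.93 CPM in WT tissue. Both groups were fully apart for these genes, with log2 differences of 7.73 ± 2.24 (8.58 without WT replicate 3) for LOR and 9.02 ± 2.05 for SBSN. The transglutaminases that cross-link the envelope rose too, TGM3 by 6.54 ± 1.23 and TGM5 by 6.85 ± 1.3, as did KLF4, a transcription factor of barrier formation, by 4.4 ± 0.69. SCEL, a precursor of the envelope, had 444 counts in DIK tumours and 0 in WT tissue, so it was at least 212-fold higher. PPL, a plakin of the envelope that other tissues also make, did not pass the test, at 68.7, 131 and 81.6 CPM in DIK tumours, against 66.5, 85.2 and 74.8 CPM in WT tissue.

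**Figure D1:**
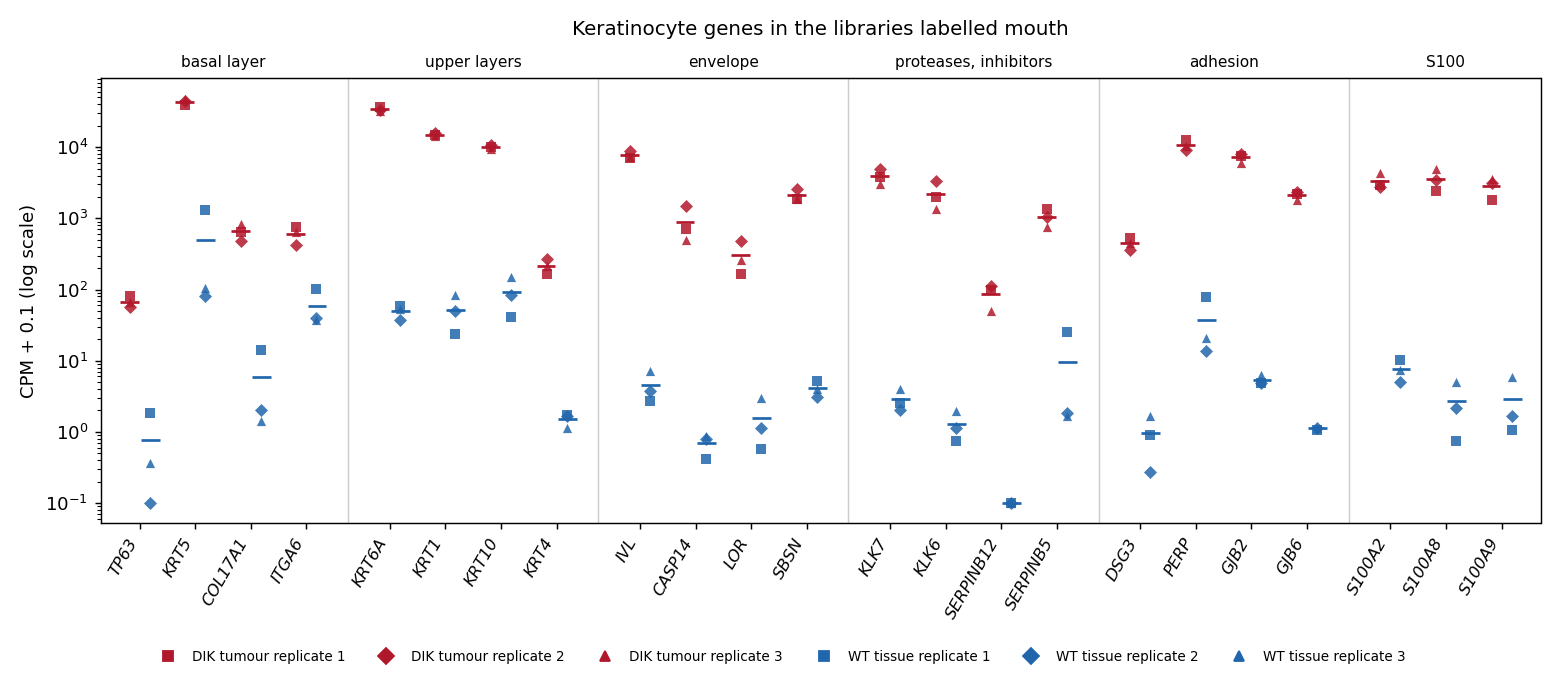
Levels of 23 keratinocyte genes in the 6 libraries labelled mouth, as CPM with 0.1 added on a log axis. Each point is 1 library, with DIK tumours in red left of WT tissue in blue, symbols give the replicate and short lines the mean of 3. The groups do not overlap for any of these genes, which were picked for display with earlier results of these data known. Of all genes tested 58.7% did not overlap. WT replicate 1 is the highest WT library for several, among them TP63, KRT5, COL17A1, ITGA6, SERPINB5 and PERP.

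Lipids between the cornified cells make the barrier watertight. Of 12 tested genes for barrier lipids 9 rose and none fell. ELOVL7, which lengthens fatty acids, had 152, 162 and 123 CPM in DIK tumours, against 19.3, 7.49 and 11.5 CPM in WT tissue, a log2 difference of 3.5 ± 0.70 (adjusted p 0.000837), and ELOVL4, which makes the very long acyl chains of skin ceramides, rose by 6.54 ± 1.38. ABCA12, the lipid carrier of lamellar granules, had 214 counts in DIK tumours and 1 in WT tissue, a DIK to WT ratio of 306 (95% counting interval 54.3 to 12140). SMPD1, a general lysosomal enzyme, did not pass the test, with a log2 difference of 0.43 ± 0.31.

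Desmosomes, the rivets between keratinocytes, were higher in nearly all parts. Of 13 tested members 12 rose and none fell, with a median log2 difference of 7.41. Among the cadherins of the desmosome, DSG3, of basal and oral layers, had 536, 357 and 446 CPM in DIK tumours, against 0.805, 0.174 and 1.57 CPM in WT tissue, a log2 difference of 9.07 ± 1.42 (9.72 without WT replicate 3). DSC3 was higher by 8.65 ± 1.55 (9.26 without WT replicate 1) and DSC1, of the upper layers, by 8.85 ± 1.59. The plaque protein PKP1 had 364, 427 and 682 CPM in DIK tumours, against 0.322, 0.523 and 1.05 CPM in WT tissue, a log2 difference of 9.62 ± 1.7. PERP, a membrane protein that desmosomes need in stratified epithelium, had 12758, 9266 and 10296 CPM in DIK tumours, against 78.9, 13.8 and 20.5 CPM in WT tissue, a log2 difference of 8.16 ± 1.81 (9.25 without WT replicate 1). DSG2, the cadherin of simple epithelia and heart muscle, did not pass the test, at 77.8, 82.8 and 83.7 CPM in DIK tumours, against 339.9, 13.6 and 11.3 CPM in WT tissue. WT replicate 1 lay far above the tumours and the other WT libraries below them. The log2 difference was -0.58 ± 1.02 (2.66 and called without WT replicate 1).

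Genes of gap junctions, the channels between neighbouring cells, were higher as well. GJB2, a connexin of keratinocytes and the inner ear, had 7524, 8021 and 5988 CPM in DIK tumours, against 4.83, 4.71 and 6.3 CPM in WT tissue, a log2 difference of 10.41 ± 1.34 (adjusted p 1.78e-05). GJB6, which often pairs with it, had 2173, 2319.9 and 1813 CPM in DIK tumours, against 0.966, 1.05 and 1.05 CPM in WT tissue, a log2 difference of 10.96 ± 1.45 (adjusted p 3.22e-05). The 3 WT values of each gene were close to each other. In the whole list of epithelial junction genes 11 of 16 rose and 1 fell with all libraries, and 14 rose and 0 fell without WT replicate 1. CDH1, E-cadherin, had 453, 351 and 255 CPM in DIK tumours, against 32.5, 2.44 and 1.57 CPM in WT tissue, a log2 difference of 4.83 ± 1.36 (7.37 without WT replicate 1). CLDN7, a claudin of simple and gland epithelium, was the member that fell, at 1.58, 4.13 and 1.33 CPM in DIK tumours, against 22.4, 4.36 and 1.84 CPM in WT tissue, a log2 difference of -2.01 ± 0.72 (-0.45 to -1.79 and not called without any 1 of DIK replicate 1, DIK replicate 3 and WT replicate 1, and -2.72 without DIK replicate 2). GRHL3, a transcription factor of barrier repair, had 472 counts in DIK tumours and 1 in WT tissue, a DIK to WT ratio of 675 (95% counting interval 120.5 to 26700).

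Kallikreins, the serine proteases that cut desmosomes when cornified cells are shed, all rose: 10 of 10 tested, with a median log2 difference of 8.85. KLK6 had 1972, 3334 and 1365 CPM in DIK tumours, against 0.644, 1.05 and 1.84 CPM in WT tissue, a log2 difference of 10.90 ± 1.26 (adjusted p 8.09e-06), and KLK8 had 646, 1053 and 574 CPM in DIK tumours, against 0.161, 0.871 and 1.05 CPM in WT tissue, a log2 difference of 10.10 ± 2.09. KLK10 had 2807 counts in DIK tumours and 2 in WT tissue, a DIK to WT ratio of 2006 (95% counting interval 555 to 16570). The tumour with the highest level was replicate 2 for each of these. A list of clade B serpins and other epithelial protease inhibitors, not chosen as inhibitors of kallikreins, also rose in 11 of 11 tested, with a median of 8.23. SERPINB12 had 950 counts in DIK tumours and 0 in WT tissue, which made it at least 453-fold higher. SERPINB11 had 119.9, 119.5 and 75.7 CPM in DIK tumours, against 0.483, 0.174 and 0.262 CPM in WT tissue, a log2 difference of 8.23 ± 0.65, and A2ML1, an inhibitor of the upper epidermis, rose by 9.6 ± 0.85. SERPINB5, known as maspin, had 1357, 1057 and 759 CPM in DIK tumours, against 25.3, 1.74 and 1.57 CPM in WT tissue, a log2 difference of 6.77 ± 1.71 (9.24 without WT replicate 1).

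Small calcium-binding S100 proteins and defence genes were higher in 10 of 12 tested members and lower in 2, against 10 and 1 without WT replicate 1. S100A8, which pairs with S100A9 as calprotectin in stressed epithelium and in neutrophils, had 2405, 3505 and 4944 CPM in DIK tumours, against 0.644, 2.09 and 4.98 CPM in WT tissue, a log2 difference of 10.49 ± 1.4 (11.35 without WT replicate 3, adjusted p with all libraries 2.92e-05). S100A9 had 1825, 3099 and 3539 CPM in DIK tumours, against 0.966, 1.57 and 5.77 CPM in WT tissue, a log2 difference of 10.03 ± 1.48 (11.09 without WT replicate 3, adjusted p with all libraries 8.15e-05). WT replicate 3 was the highest WT library for both and lay far below every tumour. S100A2, a p63 target of basal cells, had 2985, 2745 and 4287 CPM in DIK tumours, against 10.1, 4.88 and 7.34 CPM in WT tissue, a log2 difference of 8.8 ± 0.75. The neutrophil receptor CXCR2 had 130 counts in DIK tumours and 1 in WT tissue, a DIK to WT ratio of 186 (95% counting interval 32.8 to 7395), and of the 4 neutrophil genes tested 2 rose, 1 of them S100A12, and 1 fell. CSF3R, the neutrophil growth factor receptor, had 0.633, 0.972 and 3.47 CPM in DIK tumours, against 0.644, 0.349 and 1.57 CPM in WT tissue and did not pass the test. The part of neutrophils in the S100 values was not tested. LCN2, a defence protein of gland and inflamed epithelium, was called lower at a log2 difference of -3.06 ± 1.16 (-2.77 to -3.66 and not called without any 1 of DIK replicate 1, DIK replicate 2 and DIK replicate 3, and 0.62 and not called without WT replicate 1), with 10.1, 8.02 and 23.5 CPM in DIK tumours, against 329, 11.7 and 5.51 CPM in WT tissue, and the tumours lay within the range of the WT libraries.

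The largest differences with a high level were led by the groups above. Beside kallikreins, connexins, S100 genes, SERPINB12, envelope genes and a desmosome cadherin, the 15 largest rises held PLET1 and MMP1. PLET1, a surface protein of epithelial progenitors in mice, had 2339 counts in DIK tumours and 1 in WT tissue, a DIK to WT ratio of 3343 (95% counting interval 599 to 132100). MMP1, an interstitial collagenase, had 2433, 1121 and 2714 CPM in DIK tumours, against 0.483, 0.349 and 3.41 CPM in WT tissue, a log2 difference of 10.61 ± 1.46 (12.18 without WT replicate 3, adjusted p with all libraries 4.21e-05). Among the 15 largest falls, the muscle genes ACTC1, TNNC1, DES and CKM were low in all tumours and high in all WT tissues. ACTC1, a cardiac actin whose reads may be split with other actins, had 3.16, 2.92 and 4.0 CPM in DIK tumours, against 8131, 22526 and 30743 CPM in WT tissue, and TNNC1, a slow muscle troponin, had 0 counts in DIK tumours and 1634 in WT tissue and was at least 381-fold lower. PTGDS, which makes prostaglandin D, had 2 counts in DIK tumours and 6697 in WT tissue, a WT to DIK ratio of 2343 (95% counting interval 648 to 19350). A further set of these, PIP, PHEROC, ADH1C, SCGB1D1, CHIA and SAL1, was 12 to 143 times higher in WT replicate 1 than in the next WT library. PIP, a secretory protein of glands, had 1 count in DIK tumours and 37699 in WT tissue, a WT to DIK ratio of 26380 (95% counting interval 4734 to 1042000), of which replicate 1 held most at 6006, 61 and 8.39 CPM in the 3 WT libraries. Without replicate 1 the ratio of PIP was 441 (95% counting interval 78.7 to 17470).

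Genes of cell division were higher in DIK tumours. All 24 tested members of the mitosis list rose, with a median log2 difference of 3.61, and 14 of 19 replication genes rose with a median of 1.87. UBE2C, which marks mitotic proteins for destruction, had 43.7, 30.4 and 38.7 CPM in DIK tumours, against 0.161, 0.871 and 0.787 CPM in WT tissue, a log2 difference of 5.94 ± 0.57 (adjusted p 5.34e-07). CDK1, the kinase that drives mitosis, had 16.5, 5.34 and 9.6 CPM in DIK tumours, against 0.322, 0.174 and 0.787 CPM in WT tissue, a log2 difference of 4.62 ± 0.57. TOP2A, the topoisomerase that untangles chromosomes, had 19.3, 15.5 and 25.1 CPM in DIK tumours, against 0.483, 0.697 and 1.57 CPM in WT tissue, a log2 difference of 4.5 ± 0.58. The groups did not overlap for any of these, although WT levels were often near 1 CPM, so the size of the fold rests on few WT counts. BUB1, a checkpoint kinase, had 48 counts in DIK tumours and 0 in WT tissue and was at least 22.9-fold higher.

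In the replication list PCNA, the sliding clamp of DNA polymerase, had 44.3, 33.8 and 39.7 CPM in DIK tumours, against 9.66, 6.45 and 5.77 CPM in WT tissue, a log2 difference of 2.41 ± 0.28 (adjusted p 3.35e-06). CCNA2, the S phase cyclin, rose by 3.94 ± 0.50 and TYMS, which makes thymidylate, by 4.3 ± 0.65. Genes of the MCM helicase rose in smaller steps, MCM4 by 2.44 ± 0.34 and MCM7 by 1.87 ± 0.37. Genes that slow the cycle split, with 5 of 13 higher (38.5%, against 22.7% of all genes tested) and 4 lower (30.8%, against 24.3%). CDKN2B, an inhibitor of the G1 kinases, had 1049, 1432 and 1139 CPM in DIK tumours, against 3.86, 2.09 and 6.03 CPM in WT tissue, a log2 difference of 8.25 ± 1.55 (adjusted p 0.000751). CDKN1A, the p21 inhibitor, had 109.8, 132 and 146 CPM in DIK tumours, against 14.8, 9.59 and 10.5 CPM in WT tissue, a log2 difference of 3.47 ± 0.47. CDKN2C, which inhibits the same kinases as CDKN2B, and RBL2, a retinoblastoma relative of resting cells, were lower, with log2 differences of -1.83 ± 0.38 and -1.85 ± 0.38.

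Ligands of the EGF receptor rose in DIK tumours. Of 13 tested ligands, receptors and their inhibitor 10 rose and 1 fell, with a median log2 difference of 2.35. HBEGF had 146, 197 and 266 CPM in DIK tumours, against 9.01, 23.4 and 25.2 CPM in WT tissue, a log2 difference of 3.41 ± 0.55 (adjusted p 7.81e-05). AREG had 320 counts in DIK tumours and 1 in WT tissue, a DIK to WT ratio of 457 (95% counting interval 81.5 to 18120). NRG1, a ligand of ERBB3, had 40.5, 34 and 52.2 CPM in DIK tumours, against 4.67, 0.174 and 0 CPM in WT tissue, a log2 difference of 4.55 ± 0.76 (8.21 without WT replicate 1). The receptor EGFR itself had 44.3, 43 and 46.4 CPM in DIK tumours, against 11.3, 12 and 9.71 CPM in WT tissue, a smaller log2 difference of 2.01 ± 0.45. BTC was the ligand that fell, at 0.633, 0.972 and 0.267 CPM in DIK tumours, against 4.18, 9.59 and 11.8 CPM in WT tissue, a log2 difference of -3.67 ± 0.54.

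Genes that respond to RAS and ERK signalling, the path below these receptors, rose in 9 of 17 tested and fell in 1, with a median log2 difference of 1.52. PHLDA1 had 165, 157 and 170.1 CPM in DIK tumours, against 7.08, 10.6 and 4.98 CPM in WT tissue, a log2 difference of 4.42 ± 0.54 (adjusted p 5.94e-06). FOSL1, an AP-1 subunit, had 9.49, 10.9 and 15.7 CPM in DIK tumours, against 0.805, 0.349 and 0.525 CPM in WT tissue, a log2 difference of 4.33 ± 0.63, and the receptor EPHA2 rose by 2.32 ± 0.36. CCND1, cyclin D1, was the member that fell, at 48.1, 47.9 and 55.2 CPM in DIK tumours, against 108, 103 and 86.3 CPM in WT tissue, a log2 difference of -0.98 ± 0.32 (-0.93 and not called without DIK replicate 1, and -0.93 and not called without DIK replicate 2). The ERK phosphatase DUSP6, a common readout of the path, did not pass the test at 10.1, 8.02 and 18.7 CPM in DIK tumours, against 30.6, 5.75 and 6.3 CPM in WT tissue. Immediate early and heat shock genes rose in 10 of 15, among them JUNB by 4.02 ± 0.54 and HSPA8 by 2.68 ± 0.41, and 2 fell.

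Other receptor tyrosine kinases moved in both directions. Of 17 tested 4 rose (23.5%, against 22.7% of all genes tested) and 7 fell (41.2%, against 24.3%). MST1R, a receptor of epithelium, had 54.1, 62.4 and 56 CPM in DIK tumours, against 6.12, 0.349 and 1.57 CPM in WT tissue, a log2 difference of 4.36 ± 0.99 (5.95 without WT replicate 1), and FGFR3, another, rose by 5.35 ± 1.25 (6.18 without WT replicate 1). DDR2, a collagen receptor of fibroblasts, had 3.8, 4.37 and 2.67 CPM in DIK tumours, against 59.5, 96.2 and 84.5 CPM in WT tissue, a log2 difference of -4.45 ± 0.42 (adjusted p 4.29e-07), and the mesenchymal receptors FGFR1 and PDGFRA fell, with log2 differences of -4.14 ± 0.56 (-4.88 without DIK replicate 2) and -3.26 ± 0.44.

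Genes of the WNT, NOTCH, TGF-beta and IGF pathways moved in both directions. In the WNT list 10 of 28 rose (35.7%, against 22.7% of all genes tested) and 10 fell (35.7%, against 24.3%). The ligand WNT10A had 111 counts in DIK tumours and 1 in WT tissue, a DIK to WT ratio of 159 (95% counting interval 27.9 to 6322), and WNT5A rose by 3.37 ± 0.61 (4.09 without WT replicate 1), while DKK2, a secreted modulator, had 1.27, 0.243 and 0.533 CPM in DIK tumours, against 35.6, 144 and 132 CPM in WT tissue, a log2 difference of -7.26 ± 0.68 (-7.95 without DIK replicate 1). AXIN2, a target gene of the canonical pathway, did not pass the test, at 2.21, 6.32 and 4.26 CPM in DIK tumours, against 1.93, 3.49 and 2.36 CPM in WT tissue. LGR5, a receptor for R-spondins, had 0 counts in DIK tumours and 289 in WT tissue, and was at least 67.4-fold lower.

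In the NOTCH list 6 of 13 rose (46.2%, against 22.7% of all genes tested) and 3 fell (23.1%, against 24.3%). The ligand JAG1 had 96.8, 70.9 and 95.7 CPM in DIK tumours, against 11.3, 23.4 and 15.2 CPM in WT tissue, a log2 difference of 2.4 ± 0.33 (adjusted p 1.83e-05), and the receptor NOTCH1, which drives keratinocytes out of the basal layer, rose by 2.71 ± 0.49. HEY2, a target known from vessels and heart, fell, with a log2 difference of -2.17 ± 0.59. In the TGF-beta and BMP list 5 of 21 rose (23.8%, against 22.7% of all genes tested) and 8 fell (38.1%, against 24.3%). ID1, a BMP target, had 193, 199 and 227 CPM in DIK tumours, against 10.1, 17.1 and 17.6 CPM in WT tissue, a log2 difference of 3.79 ± 0.37, and the accessory receptor TGFBR3 had 3.16, 3.64 and 5.86 CPM in DIK tumours, against 42, 64.8 and 58 CPM in WT tissue, a log2 difference of -3.68 ± 0.40. Of 10 IGF genes 7 fell, among them the growth factor IGF1 with a log2 difference of -4.74 ± 0.70. The 2 that rose were the binding protein IGFBP3, by 2.81 ± 0.66, and PAPPA, a protease that cuts such proteins, by 2.64 ± 0.53. Of 7 hedgehog genes 6 fell, the largest in the co-receptor BOC, with a log2 difference of -3.63 ± 0.63.

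Genes of glucose use and of the response to low oxygen rose in part. Of 25 glycolysis genes 11 rose (44%, against 22.7% of all genes tested) and 3 fell (12%, against 24.3%), while 9 rose and 5 fell without WT replicate 1. SLC2A1, the glucose carrier, had 1685, 1678 and 1398 CPM in DIK tumours, against 68.7, 24.7 and 26 CPM in WT tissue, a log2 difference of 5.31 ± 0.64 (5.92 without WT replicate 1, adjusted p with all libraries 4.47e-06). HK2, the first enzyme of the path, had 61.7, 61.7 and 42.6 CPM in DIK tumours, against 2.9, 0.523 and 0.262 CPM in WT tissue, a log2 difference of 5.35 ± 0.77 (6.91 without WT replicate 1), and LDHA, which makes lactate, rose by 1.83 ± 0.45. The members that fell, ENO3, PGAM2 and SLC2A4, are the muscle forms of enolase and phosphoglycerate mutase and the glucose carrier of muscle and fat. ENO3 had 2.53, 1.7 and 1.6 CPM in DIK tumours, against 43.3, 117 and 110.4 CPM in WT tissue, a log2 difference of -5.52 ± 0.72. ENO1, the general form, and GAPDH did not pass the test, with log2 differences of 0.62 ± 0.32 and 0.40 ± 0.37.

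In the list of hypoxia genes 12 of 20 rose and 1 fell, with a median log2 difference of 1.31, while 13 rose and 3 fell without WT replicate 1. EGLN3, an oxygen-sensing hydroxylase, had 47.8, 48.3 and 31.2 CPM in DIK tumours, against 2.41, 1.57 and 0.525 CPM in WT tissue, a log2 difference of 4.71 ± 0.44 (adjusted p 4.29e-07). NDRG1 had 224, 202 and 264 CPM in DIK tumours, against 11.6, 12.2 and 13.9 CPM in WT tissue, a log2 difference of 4.19 ± 0.53, and the carbonic anhydrase CA9 rose by 2.53 ± 0.50. The member that fell was LOX, a collagen cross-linking enzyme that matrix cells secrete, at 4.11, 1.94 and 4.0 CPM in DIK tumours, against 53.9, 83.5 and 113 CPM in WT tissue, a log2 difference of -4.64 ± 0.52.

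Cholesterol synthesis genes mostly rose. Of 15 tested genes 13 rose and 1 fell, with a median log2 difference of 2.09, and 13 rose and 0 fell without WT replicate 1. HMGCS1, an early enzyme of the path, had 219.6, 219.8 and 159.7 CPM in DIK tumours, against 18.7, 12 and 18.4 CPM in WT tissue, a log2 difference of 3.61 ± 0.40 (adjusted p 1.87e-06), and FDPS, which makes farnesyl diphosphate, rose by 4.32 ± 0.52 (5.18 without WT replicate 1). SQLE, an enzyme of the later path, had 94, 104 and 107 CPM in DIK tumours, against 22, 8.54 and 8.13 CPM in WT tissue, a log2 difference of 2.96 ± 0.59 (3.56 without WT replicate 1).

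The antioxidant and amino acid groups depended on WT replicate 1. Of 18 tested NRF2 targets 7 rose (38.9%, against 22.7% of all genes tested) and 2 fell (11.1%, against 24.3%) with all libraries. The counts were 13 and 1 without WT replicate 1. AKR1B1, an aldose reductase, had 3366, 3177 and 2215 CPM in DIK tumours, against 10.1, 12.4 and 15.5 CPM in WT tissue, a log2 difference of 7.85 ± 0.58 (adjusted p 6.82e-08), and GPX3, a secreted glutathione peroxidase, had a log2 difference of -4.84 ± 0.39. NQO1, a standard target, had 46.2, 43.7 and 28.3 CPM in DIK tumours, against 182, 18.5 and 11.3 CPM in WT tissue, a log2 difference of -0.85 ± 0.76 (1.35 and called without WT replicate 1). Of 19 genes of amino acid supply and stress 6 rose (31.6%, against 22.7% of all genes tested) and 3 fell (15.8%, against 24.3%), with a median of 1.04. The counts were 13 and 2 without WT replicate 1, with a median of 2.94. SLC7A5, a carrier of large amino acids, had 210.4, 335 and 328 CPM in DIK tumours, against 486, 13.2 and 0.525 CPM in WT tissue, a log2 difference of 0.80 ± 1.36 (5.31 and called without WT replicate 1). PSAT1, of serine synthesis, had 378, 281 and 164 CPM in DIK tumours, against 640.4, 13.2 and 12.3 CPM in WT tissue, a log2 difference of 0.30 ± 1.24 (4.38 and called without WT replicate 1). SLC38A2, a glutamine carrier, had 819, 648 and 742 CPM in DIK tumours, against 71.8, 85.6 and 77.6 CPM in WT tissue, a log2 difference of 3.23 ± 0.41.

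All 25 tested smooth muscle genes fell in DIK tumours, with a median log2 difference of -7.19, or -6.98 with genes of 0 counts set at their lower bound. Their sum was 5049.7, 5798 and 4852 CPM in DIK tumours, against 116133, 218651 and 212292 CPM in WT tissue. MYOCD, myocardin, had 0 counts in DIK tumours and 331 in WT tissue, and was at least 77.2-fold lower. DES, desmin of the intermediate filaments, had 1.58, 2.19 and 1.33 CPM in DIK tumours, against 2584, 5913 and 6005 CPM in WT tissue, a log2 difference of -11.44 ± 0.83 (adjusted p 6.82e-08). MYLK, the kinase that starts contraction, had 15.2, 18.9 and 21.1 CPM in DIK tumours, against 1691, 4954 and 4809 CPM in WT tissue, a log2 difference of -7.69 ± 0.64, and ACTG2, the actin of visceral smooth muscle, had a log2 difference of -7.87 ± 1.06. CNN1, calponin, had 1 count in DIK tumours and 1744 in WT tissue, a WT to DIK ratio of 1220 (95% counting interval 219 to 48220). WT replicate 1 was the lowest WT library for these genes and lay above every tumour.

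Among the smaller falls were members that other cells also use, and the part of such cells in these values was not tested. ACTA2, which myofibroblasts share, had 3426, 4111 and 3203 CPM in DIK tumours, against 49244, 86507 and 88647 CPM in WT tissue, a log2 difference of -4.38 ± 0.68, and caldesmon, CALD1, one of -2.74 ± 0.38. Skeletal muscle genes took a smaller share of WT counts than smooth muscle genes. They summed to 5.7, 10.4 and 9.86 CPM in DIK tumours, against 1299.6, 3830.5 and 3354 CPM in WT tissue, and 16 of 18 tested fell. The median log2 difference was -6.59, or -4.83 with genes of 0 counts at their bound. PYGM, muscle glycogen phosphorylase, had 0.633, 0.486 and 0.267 CPM in DIK tumours, against 90, 221 and 219 CPM in WT tissue, a log2 difference of -8.49 ± 0.80, and CKM, the creatine kinase of muscle, one of -10.92 ± 1.53 (-13.60 without DIK replicate 2). RYR1 and TNNI2, the calcium release channel and a fast troponin, did not pass the test.

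**Figure D2:**
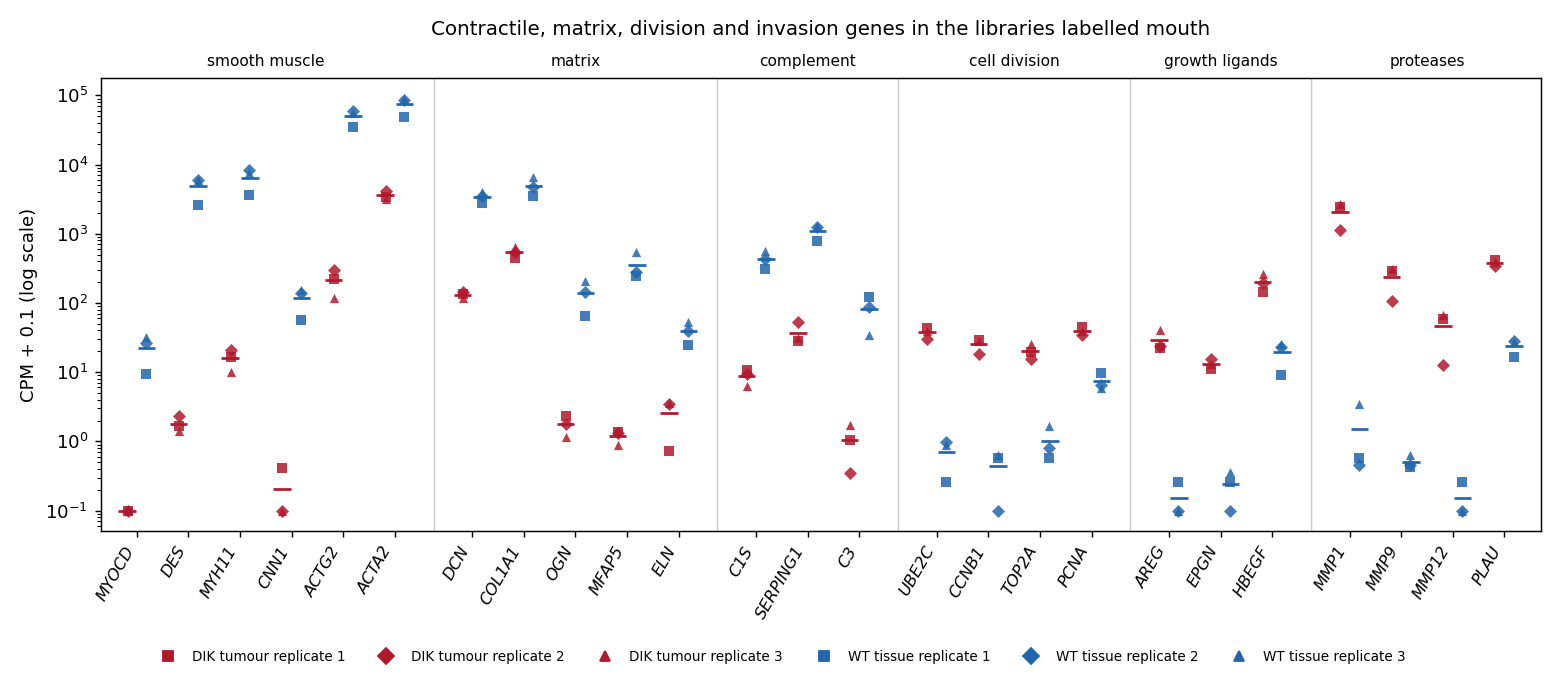
Levels of 25 genes of smooth muscle, matrix, complement, cell division, growth ligands and proteases in the 6 libraries labelled mouth, as CPM with 0.1 added on a log axis. Each point is 1 library, with DIK tumours in red left of WT tissue in blue, and short lines are means of 3. The first 3 groups lie lower and the last 3 higher in DIK tumours, with no overlap for any gene shown. The genes were picked for display with earlier results of these data known, and 58.7% of all genes tested did not overlap.

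Matrix of fibroblasts was lower in DIK tumours. Of 19 tested genes 16 fell and none rose, with a median log2 difference of -3.17. OGN, a small leucine-rich proteoglycan, had 2.21, 1.7 and 1.07 CPM in DIK tumours, against 65.3, 142 and 206 CPM in WT tissue, a log2 difference of -6.36 ± 0.64 (adjusted p 1.29e-06). COL1A1, the main chain of fibrillar collagen, had 453, 544 and 640.0 CPM in DIK tumours, against 3511, 4670.0 and 6519 CPM in WT tissue, a log2 difference of -3.17 ± 0.51, and COL6A3, of microfibrillar collagen, one of -3.82 ± 0.49. LUM, lumican, overlapped between the groups at 149, 257 and 199 CPM in DIK tumours, against 239, 255 and 207 CPM in WT tissue and did not pass the test. Elastic fibre genes fell in 13 of 15, with a median of -2.82. MFAP5, a microfibril protein, had 1.27, 1.21 and 0.80 CPM in DIK tumours, against 247, 279.7 and 548 CPM in WT tissue, a log2 difference of -8.32 ± 0.71 (adjusted p 2.46e-07), and ELN, elastin, a log2 difference of -3.9 ± 0.63.

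Genes of activated stroma moved in both directions. Of 15 tested 6 rose (40%, against 22.7% of all genes tested) and 6 fell (40%, against 24.3%). Their log2 differences ran from -4.85 to 4.35, with a median of -0.33. The list summed to 2563, 2515 and 2317 CPM in DIK tumours, against 4020, 6598 and 7117 CPM in WT tissue, so its sum fell as that of the fibroblast matrix did. THBS1, a secreted matrix protein that keratinocytes also make, had 68.3, 53.7 and 68.5 CPM in DIK tumours, against 10.9, 6.27 and 4.2 CPM in WT tissue, a log2 difference of 3.13 ± 0.43 (adjusted p 1.52e-05). PDPN, podoplanin of basal keratinocytes, lymph vessels and tumour fibroblasts, rose by 3.38 ± 0.61 and TGFBI by 2.0 ± 0.48. POSTN, periostin, had 27.5, 22.1 and 18.7 CPM in DIK tumours, against 488, 729 and 758 CPM in WT tissue, a log2 difference of -4.85 ± 0.64, and TNC, tenascin C, one of -2.6 ± 0.47. FAP, a surface protease of reactive fibroblasts, was low in both groups, at 2.85, 2.43 and 3.73 CPM in DIK tumours, against 7.56, 10.1 and 8.13 CPM in WT tissue, and fell, with a log2 difference of -1.51 ± 0.44.

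Mesenchymal factors were lower in 9 of 11 tested and higher in 1, with a median of -2.71. ZEB2, a repressor of epithelial genes, had 5.7, 2.67 and 4.0 CPM in DIK tumours, against 32.3, 64.5 and 57.4 CPM in WT tissue, a log2 difference of -3.65 ± 0.43 (adjusted p 3.89e-06), and VIM, vimentin, and FN1, fibronectin, fell, with log2 differences of -3.67 ± 0.48 and -2.71 ± 0.46. SNAI2, a repressor that basal keratinocytes also use, was the member that rose, at 132, 71.9 and 139 CPM in DIK tumours, against 27, 14.1 and 32.3 CPM in WT tissue, a log2 difference of 2.22 ± 0.48. Smooth muscle cells and fibroblasts carry these genes, and the part of their RNA in WT tissue in the result was not tested.

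Proteases of invasion and their inhibitors moved in both directions. Of 19 tested 8 rose (42.1%, against 22.7% of all genes tested) and 5 fell (26.3%, against 24.3%). MMP9, a gelatinase, had 292, 108 and 309 CPM in DIK tumours, against 0.322, 0.349 and 0.525 CPM in WT tissue, a log2 difference of 9.14 ± 0.77 (adjusted p 2.5e-07), and PLAU, the urokinase that activates plasmin, had 415, 344 and 388 CPM in DIK tumours, against 16.3, 28.1 and 27 CPM in WT tissue, a log2 difference of 4.01 ± 0.57. MMP13, a collagenase, rose by 6.41 ± 1.17 and MMP3, a stromelysin, by 5.17 ± 0.98 (6.03 without WT replicate 1). Tumour replicate 2 was the lowest tumour for MMP1, MMP9, MMP12, MMP13 and MMP3. MMP2, the gelatinase of matrix cells, had 32.9, 35.2 and 21.9 CPM in DIK tumours, against 429, 527 and 627 CPM in WT tissue, a log2 difference of -4.13 ± 0.48, and the inhibitors TIMP2 and TIMP3 fell, with log2 differences of -3.4 ± 0.38 and -4.26 ± 0.55, while TIMP1 rose by 1.83 ± 0.49.

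Vessel and nerve markers were lower. Of 17 endothelial genes 13 fell and none rose, with a median log2 difference of -1.46. CLDN5, the claudin of vessels, had 6.96, 8.75 and 10.1 CPM in DIK tumours, against 51.7, 51.6 and 52.5 CPM in WT tissue, a log2 difference of -2.58 ± 0.45 (adjusted p 0.000153), and LYVE1, of lymph vessels, and VWF, of blood vessels, fell, with log2 differences of -3.89 ± 0.66 and -2.11 ± 0.47. KDR, the main VEGF receptor, overlapped between the groups, at 11.4, 9.72 and 7.73 CPM in DIK tumours, against 15, 11.7 and 6.03 CPM in WT tissue, and did not pass the test. Of 8 Schwann cell and nerve genes 5 fell and 1 rose. S100B, of Schwann cells, had a log2 difference of -4.19 ± 0.67. The member that rose was ERBB3, which epithelium also uses, by 2.35 ± 0.61.

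Immune genes differed by list. Of 3 tested B and plasma cell genes 2 rose and none fell, with 1 called higher without WT replicate 1. Of 13 macrophage genes 6 fell (46.2%, against 24.3% of all genes tested) and none rose (against 22.7%). C1QB, part of C1q, had 9.49, 11.2 and 14.1 CPM in DIK tumours, against 38, 38 and 52.5 CPM in WT tissue, a log2 difference of -1.88 ± 0.40 (adjusted p 0.000946), and CSF1R, the receptor for their growth factor, one of -1.59 ± 0.31. CD68, of their lysosomes, did not pass the test, at 14.6, 13.4 and 13.3 CPM in DIK tumours, against 12.6, 14.3 and 19.7 CPM in WT tissue. Of 18 genes of antigen presentation 8 fell (44.4%, against 24.3% of all genes tested) and 1 rose (5.56%, against 22.7%). B2M, the light chain of class I molecules, had 81.3, 68.5 and 67.4 CPM in DIK tumours, against 189, 313 and 265 CPM in WT tissue, a log2 difference of -1.82 ± 0.35, and SLA-DQA1, a class II chain, was the member that rose, by 1.35 ± 0.39. Class I genes of the pig resemble each other, so reads may be split among them.

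Interferon response genes fell in 7 of 19 (36.8%, against 24.3% of all genes tested) and rose in 2 (10.5%, against 22.7%). HERC6 had 6.64, 2.92 and 3.73 CPM in DIK tumours, against 20.8, 20 and 15.7 CPM in WT tissue, a log2 difference of -2.11 ± 0.43, and ISG15 was higher, at 76.3, 82.4 and 89 CPM in DIK tumours, against 22.2, 33.6 and 25.2 CPM in WT tissue, by 1.61 ± 0.46. Of 12 cytokine genes 5 rose (41.7%, against 22.7% of all genes tested) and 2 fell (16.7%, against 24.3%). IL1A, an alarm signal that keratinocytes store, had 175 counts in DIK tumours and 0 in WT tissue and was at least 83.4-fold higher, and PTGS2, which makes prostaglandins, had 1163 counts in DIK tumours and 3 in WT tissue, a DIK to WT ratio of 554 (95% counting interval 189 to 2691). CXCL12, a chemokine of stroma, fell, with a log2 difference of -2.51 ± 0.45.

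Complement genes fell in 10 of 12 tested, with a median log2 difference of -3.87. C1S, a protease of the classical path, had 10.8, 9.23 and 6.13 CPM in DIK tumours, against 307, 438 and 557 CPM in WT tissue, a log2 difference of -5.64 ± 0.72 (adjusted p 1.3e-05). SERPING1, the inhibitor of C1, had 27.8, 53 and 30.7 CPM in DIK tumours, against 796, 1242 and 1291 CPM in WT tissue, a log2 difference of -4.9 ± 0.65, and CFD, factor D of the alternative path, one of -3.79 ± 0.47. C3, the central component, had 0.949, 0.243 and 1.6 CPM in DIK tumours, against 121, 86.1 and 34.9 CPM in WT tissue, a log2 difference of -6.42 ± 0.84 (-7.08 without DIK replicate 3). C3 was highest in the WT libraries that held liver plasma transcripts, and the part of these in the C3 value was not tested. Without both of these libraries 10 of the genes fell and 0 rose, and the log2 difference of C3 was -5.2.

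Gland genes depended on WT replicate 1. Of 19 tested members 1 rose (5.26%, against 22.7% of all genes tested) and 7 fell (36.8%, against 24.3%) with all libraries. The counts were 5 and 6 without WT replicate 1. The list summed to 436, 686 and 696 CPM in DIK tumours, against 11939, 358 and 429 CPM in WT tissue. KRT7, a keratin of simple and gland epithelium, had 106, 106 and 167 CPM in DIK tumours, against 1572, 7.15 and 3.41 CPM in WT tissue, and its log2 difference was -2.07 ± 1.45 (4.51 and called without WT replicate 1). KRT19 had 80.4, 105 and 119.7 CPM in DIK tumours, against 1364, 7.84 and 5.77 CPM in WT tissue, and its log2 difference was -2.18 ± 1.42 (3.84 and called without WT replicate 1). KRT8 had 20.6, 18.7 and 56.5 CPM in DIK tumours, against 1821, 58.4 and 35.7 CPM in WT tissue, with a log2 difference of -4.32 ± 1.31 (-0.60 to -4.07 and not called without any 1 of DIK replicate 1, DIK replicate 2 and WT replicate 1, and -5.01 without DIK replicate 3). For KRT7 and KRT19 the tumours lay above WT replicates 2 and 3 and below replicate 1. LTF, lactoferrin, and SPDEF, a factor of secretory cells, were called lower, with log2 differences of -7.67 ± 1.8 (-3.28 without WT replicate 1) and -6.74 ± 1.82 (-8.05 without DIK replicate 1, and -1.54 and not called without WT replicate 1), and LTF had 0.949, 1.21 and 0.533 CPM in DIK tumours, against 555, 16.7 and 0.525 CPM in WT tissue.

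**Figure D3:**
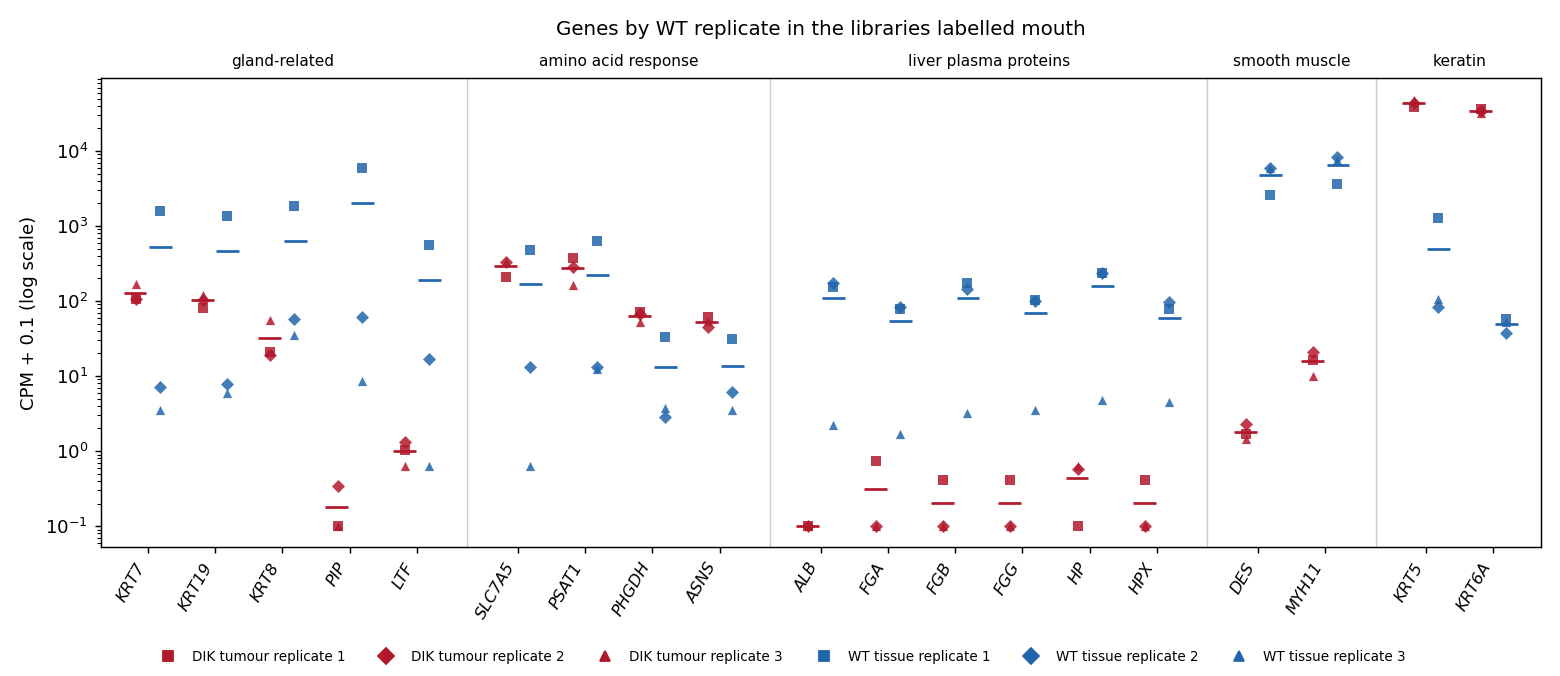
Levels of gland-related, amino acid response, liver plasma protein, smooth muscle and keratin genes by library, as CPM with 0.1 added on a log axis, with DIK tumours in red left of WT tissue in blue and short lines for means of 3. WT replicate 1 (square) stands above the other WT libraries for gland-related and amino acid genes, replicates 1 and 2 above replicate 3 (triangle) for the liver plasma proteins shown, and replicate 1 below the others for DES and MYH11.

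Over all genes 6162 of 13219 (46.6%) were called without WT replicate 1. Of the 6054 calls with all libraries, 5443 were kept in the same direction, 588 were lost, 22 were not tested and 1, PHYH, which breaks down branched fatty acids, changed direction, with log2 differences of -2.73 ± 1.06 with all libraries and 1.07 without it. The PHYH call is near the threshold (adjusted p 0.0469) and is also lost without any 1 of the DIK libraries (0.0813 to 0.139) or without WT replicate 2 labelled scrotum (0.0614). Without WT replicate 1 labelled mouth, 25 of 25 smooth muscle genes were called lower, 16 of 17 envelope genes and 23 of 24 mitosis genes higher. Without WT replicates 1 and 2 together, which leaves 1 WT library, 4461 of 13987 genes (31.9%) were called. The counts of members called higher were then 2 for barrier lipids, against 9 with all libraries, 3 for upper keratins, against 6, 9 for the envelope, against 16, 5 for kallikreins, against 10, and 9 for replication, against 14. The 23 mitosis genes and 13 cholesterol genes called higher and the 25 smooth muscle genes called lower in that setting compare with 24, 13 and 25.

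**Figure D4:**
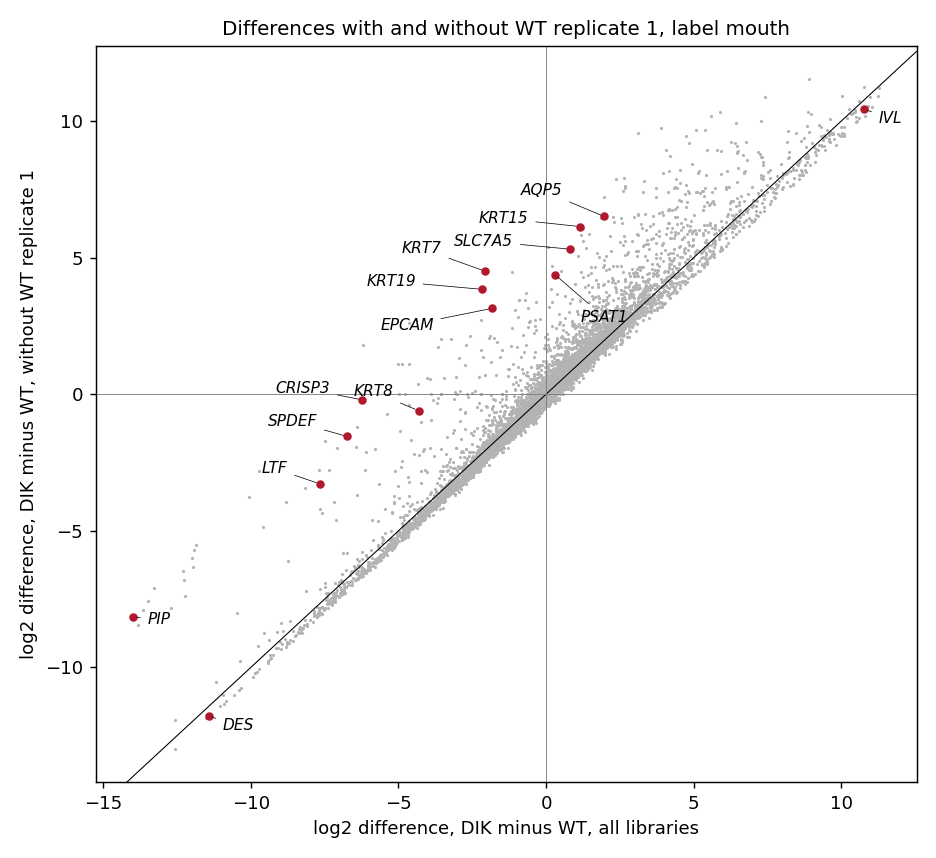
Log2 difference, DIK minus WT, of each gene tested both ways, with all libraries on the horizontal axis and without WT replicate 1 on the vertical axis. Grey points are genes, the diagonal marks equal values, and labelled points such as KRT7 (-2.07 with all libraries and 4.51 without) lie far above it, while IVL and DES lie close to it.

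Some differences at the mouth label were larger or smaller than at the nose and scrotum labels of the same series. The test of that difference called 1295 of 12895 genes, 684 higher (5.30%) and 611 lower (4.74%). In the list of oxidative phosphorylation 9 of 11 tested members passed it and were higher, while the mouth comparison itself had 3 higher and 4 lower. In the glycolysis list 11 were higher and 2 lower, and in the smooth muscle list 1 was higher and 9 lower. Without WT replicate 2 labelled scrotum 1711 genes were called, 899 higher and 812 lower. The WT nose and scrotum libraries held 12.1% to 28% of their counts in skeletal muscle genes, against 0.177% to 0.459% in WT tissue labelled mouth, and the part of this in the difference was not tested.

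**Figure D5:**
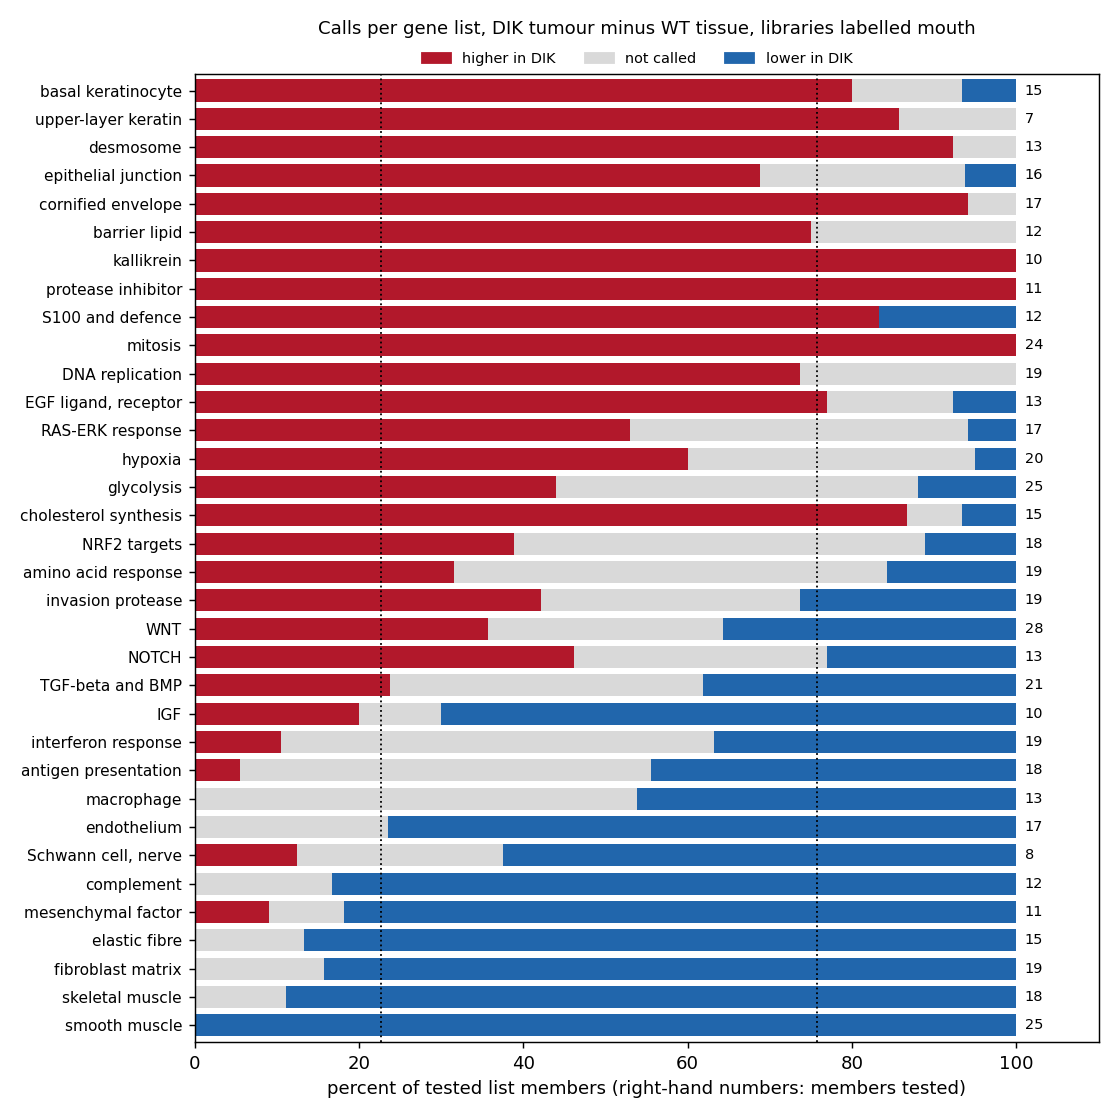
Share of tested members called higher in DIK tumours (red), not called (grey) and called lower (blue) for a selection of the lists, with the number tested at the right. Dotted lines mark the shares over all genes tested, 22.7% higher from the left and 24.3% lower from the right; mitosis, kallikrein and inhibitor members were all higher and smooth muscle members all lower.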

How the data were processed

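RNA of 18 pig libraries in 6 groups of 3 was measured by mRNA sequencing. RNAlater, TRIzol and a VAHTS mRNA-seq V3 kit were used for storage, RNA and libraries, per the labels' protocols. The submitters' processing notes name fastp, HISAT2 2.1.0 and HTSeq 0.11.2. The build, annotation, strand setting and handling of multiply matched reads were not given in the sources used here. Genes with near-identical copies (actins, keratins, S100 and class I genes) or antisense partners are therefore uncertain. The deposited values are whole-number read counts per gene, with no normalization by the authors.

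Counts were tested with edgeR 4.0.16 in R 4.3.3 (quasi-likelihood fit, robust, TMM scaling, genes with at least 10 counts in enough libraries and 15 in all). The fit held all 18 libraries with 1 mean per group, and p-values were adjusted by Benjamini-Hochberg over all genes tested, with calls under 0.05. Fold values are log2 differences, DIK minus WT, ± SE, and CPM uses TMM-scaled totals. The difference from the other labels was the mouth difference minus the mean of the nose and scrotum differences. A group with 0 counts was set at 3 counts over the group, which gives a bound. Ratios from 1 to 3 counts have exact 95% Poisson intervals, which cover counting error only. The square root of the common dispersion over all 18 libraries was 36.1%, and part of this spread may be technical. Alternatives were median-of-ratios, upper-quartile and plain library-size scaling, other filters, DESeq2 1.42.0, limma-voom with sample quality weights (limma 3.58.1), the mouth libraries alone with and without a replicate block, stricter thresholds and leaving out libraries. The edgeR fit of the mouth difference was run on simulated counts with known changes, and the other steps were not.

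The members and the 59 gene lists were chosen with earlier results of these data known, and no list got a test. Of 947 list members 898 are in the table and 738 were tested, and counts are over those tested. Genes were named by 4 rules: the 15 largest non-overlapping differences each way with at least 50 CPM, called alike without WT replicate 1; in each list the 5 smallest adjusted p, the members against its direction and those that changed without WT replicate 1; the 5 largest differences from the other labels each way; and the 10 genes highest in WT replicate 1. Of the 212 tested genes named in the text, 49 are outside these rules and were chosen after their values were seen. Promoter motifs were not analysed here, and a few list members are counted with their lists but not reported here by name.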

Additional observations from a re-analysis of the deposited data

Results flagged for a closer look

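For 10 genes the DIK minus WT difference at the mouth label departed from the mean of the differences at the nose and scrotum labels by the test of that departure in edgeR's quasi-likelihood fit. Levels are mean CPM ± SD over 3 libraries, and log2 departures are ± SE.

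CASP14, the protease of cornifying keratinocytes, averaged 902 ± 534 CPM in DIK tumours and 0.602 ± 0.247 CPM in WT tissue labelled mouth, 880.1 ± 68.8 and 3.14 ± 3.94 CPM in DIK and WT at the nose label, and 11 ± 3.78 and 26.8 ± 45.5 CPM in DIK and WT at the scrotum label. Its departure was 6.65 ± 1.87 (adjusted p 0.0383), 6.27 without WT replicate 1 labelled mouth (adjusted p 0.0793) and 3.73 without WT replicate 2 labelled scrotum (adjusted p 0.0144). ITGB6, an epithelial integrin subunit, averaged 170.5 ± 23 CPM in DIK tumours and 1.03 ± 0.757 CPM in WT tissue labelled mouth, 129.5 ± 88.2 and 92.3 ± 41.1 CPM in DIK and WT at the nose label, and 259 ± 14.7 and 124 ± 51.7 CPM in DIK and WT at the scrotum label. Its departure was 6.57 ± 0.70 (adjusted p 1.59e-05), 7.14 without WT replicate 1 labelled mouth (adjusted p 2.78e-05) and 6.7 without WT replicate 2 labelled scrotum (adjusted p 1.46e-06). HK2, a hexokinase, averaged 55.4 ± 11 CPM in DIK tumours and 1.23 ± 1.45 CPM in WT tissue labelled mouth, 24.6 ± 16.1 and 62.6 ± 28.9 CPM in DIK and WT at the nose label, and 64.8 ± 22.9 and 85.7 ± 52.9 CPM in DIK and WT at the scrotum label. Its departure was 6.19 ± 0.87 (adjusted p 0.000282), 7.77 without WT replicate 1 labelled mouth (adjusted p 7.05e-05) and 6.38 without WT replicate 2 labelled scrotum (adjusted p 1.62e-05). KRT23, a keratin, averaged 62.3 ± 39 CPM in DIK tumours and 2.03 ± 2.98 CPM in WT tissue labelled mouth, 79.9 ± 35.1 and 132 ± 54.2 CPM in DIK and WT at the nose label, and 9.03 ± 5.14 and 35.8 ± 60.5 CPM in DIK and WT at the scrotum label. Its departure was 6.17 ± 1.76 (adjusted p 0.0415), 8.8 without WT replicate 1 labelled mouth (adjusted p 0.0272) and 3.42 without WT replicate 2 labelled scrotum (adjusted p 0.11). CKMT1A, a mitochondrial creatine kinase, averaged 418 ± 78.7 CPM in DIK tumours and 2.48 ± 2.2 CPM in WT tissue labelled mouth, 299 ± 5.35 and 82 ± 17.1 CPM in DIK and WT at the nose label, and 80 ± 5.92 and 53.4 ± 90.2 CPM in DIK and WT at the scrotum label. Its departure was 6.14 ± 1.64 (adjusted p 0.0296), 7.18 without WT replicate 1 labelled mouth (adjusted p 0.0355) and 3.39 without WT replicate 2 labelled scrotum (adjusted p 0.00117). For these 5 genes the mean of WT tissue labelled mouth was the lowest of the 6 groups. In WT tissue labelled scrotum replicate 2 held most of the counts of CASP14, KRT23 and CKMT1A.

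GLIPR1 averaged 0.665 ± 0.635 CPM in DIK tumours and 50.2 ± 27.9 CPM in WT tissue labelled mouth, 7.65 ± 2.0 and 1.14 ± 1.01 CPM in DIK and WT at the nose label, and 63.9 ± 24.8 and 1.52 ± 0.874 CPM in DIK and WT at the scrotum label. Its departure was -10.33 ± 0.92 (adjusted p 1.02e-05), -10.74 without WT replicate 1 labelled mouth (adjusted p 3.2e-07) and -10.22 without WT replicate 2 labelled scrotum (adjusted p 1.75e-06). CRISP3, a secreted protein of glands, averaged 5.55 ± 1.65 CPM in DIK tumours and 420.1 ± 717 CPM in WT tissue labelled mouth, 16.7 ± 7.32 and 107 ± 15.2 CPM in DIK and WT at the nose label, and 199.7 ± 67.5 and 2.22 ± 1.06 CPM in DIK and WT at the scrotum label. Its departure was -8.16 ± 2.04 (adjusted p 0.0221), -2.12 without WT replicate 1 labelled mouth (adjusted p 0.0971) and -8.15 without WT replicate 2 labelled scrotum (adjusted p 0.036). DGKG, a diacylglycerol kinase, averaged 0.672 ± 0.904 CPM in DIK tumours and 117 ± 50.3 CPM in WT tissue labelled mouth, 2.0 ± 0.842 and 0.478 ± 0.543 CPM in DIK and WT at the nose label, and 0.54 ± 0.23 and 2.26 ± 0.587 CPM in DIK and WT at the scrotum label. Its departure was -6.93 ± 1.04 (adjusted p 0.000253), -7.25 without WT replicate 1 labelled mouth (adjusted p 5.58e-05) and -7.01 without WT replicate 2 labelled scrotum (adjusted p 0.000164). SFRP2, a secreted WNT modulator, averaged 0.0888 ± 0.154 CPM in DIK tumours and 112 ± 56.8 CPM in WT tissue labelled mouth, 0.445 ± 0.573 and 5.84 ± 3.75 CPM in DIK and WT at the nose label, and 0.629 ± 0.539 and 4.16 ± 1.94 CPM in DIK and WT at the scrotum label. Its departure was -6.39 ± 1.33 (adjusted p 0.00429), -6.73 without WT replicate 1 labelled mouth (adjusted p 0.00105) and -6.2 without WT replicate 2 labelled scrotum (adjusted p 0.0042). RASSF3 averaged 19.6 ± 2.51 CPM in DIK tumours and 1273 ± 733 CPM in WT tissue labelled mouth, 33.7 ± 16.5 and 36.1 ± 13 CPM in DIK and WT at the nose label, and 31.8 ± 2.12 and 36.9 ± 13.6 CPM in DIK and WT at the scrotum label. Its departure was -5.86 ± 0.61 (adjusted p 1.38e-05), -6.27 without WT replicate 1 labelled mouth (adjusted p 9.7e-07) and -5.73 without WT replicate 2 labelled scrotum (adjusted p 9.3e-07). For these 5 genes the mean of WT tissue labelled mouth was the highest of the 6 groups, except for GLIPR1, where DIK tumours labelled scrotum were higher. WT replicate 1 held most of the CRISP3 counts of its group, and no cause was tested for any of the 10.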

How the results depend on the processing

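The count of 6054 genes called at the mouth label stayed within 1.5 times of that value under every alternative run, between 4207 at an adjusted p under 0.01 and 7540 with limma-voom and sample quality weights, and between 5061 and 6162 when 1 mouth library was left out. The 538 calls among list members likewise stayed between 424 and 589. The 1295 differences from the other labels were 3052 with limma-voom and sample quality weights, between 825 and 1717 when 1 mouth library was left out (825 without DIK replicate 2 and 853 without WT replicate 2, both over 1.5 times lower), and the cause was not tested. Voom was not run without these weights, so the tool and the weighting changed together. The labels do not say that replicate numbers pair the samples, so the main fit held no block. Deviations of DIK and WT libraries with the same number correlated at 0.0382, -0.0473 and 0.0886. With 3 libraries per group these values cannot exclude a pairing. With the replicate number as a block in a fit of the 6 mouth libraries 5557 genes were called, against 5671 without the block. With the block over all 18 libraries 1322 genes differed from the other labels. Library-size scaling and upper-quartile scaling shifted the median of all genes to -0.29 and -0.15, with 36.1% and 43.2% of calls higher in DIK tumours.

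Over 3585 values for 212 named genes under the alternatives, 90 lost the call, 9 gained it and 36, in 14 genes, changed direction. Leaving out WT replicate 2 labelled scrotum, or WT replicates 1 and 2 labelled mouth together, was chosen after seeing the data, and the second of these assumes that the lone WT library varies like the other groups. Without both mouth libraries log2 differences turned to 5.19 for KRT7, 4.13 for KRT19, 3.32 for CRISP3, 2.85 for DSG2, 1.80 for NQO1, 1.36 for PHYH, 1.32 for LCN2, 0.96 for DUSP6, 0.74 for LTF, 0.67 for KDR, 0.43 for SPDEF and 0.38 for CLDN7. With limma-voom and quality weights they turned to 3.50 for KRT7, 2.98 for KRT19, 2.15 for DSG2, 0.84 for NQO1, 0.74 for DUSP6 and 0.32 for PHYH, and with the replicate block in the 6 mouth libraries to 2.76 for KRT7, 2.24 for KRT19, 1.28 for DSG2, 0.14 for NQO1 and 0.028 for DUSP6. PSAT1 turned to -0.076 with library size alone. When 1 mouth library was left out in turn, values ranged from -2.65 to 4.51 for KRT7, -2.76 to 3.84 for KRT19, -1.11 to 2.66 for DSG2, -1.35 to 1.35 for NQO1, -3.28 to 1.07 for PHYH, -3.66 to 0.62 for LCN2, -0.66 to 0.98 for DUSP6, -0.47 to 0.056 for KDR, -0.34 to 0.039 for CD68 and -0.25 to 4.38 for PSAT1.

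All 3 DIK libraries come from 1 founder, the number of WT animals was not given, WT tissue was rich in smooth muscle, and 1 WT library held gland RNA and 2 held liver transcripts. Levels under 1 CPM rest on few reads at these depths, and folds against such levels are imprecise.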

Other observations

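Several genes outside the lists had large differences and were chosen after their values were seen. Among genes of squamous epithelium, LY6D had 5405, 5118 and 6641 CPM in DIK tumours, against 5.95, 11.2 and 21.8 CPM in WT tissue, a log2 difference of 8.79 ± 2.15 (9.39 without WT replicate 3), and KRTDAP, a secreted keratinocyte peptide, had 4366, 5053 and 4406 CPM in DIK tumours, against 4.99, 6.97 and 9.44 CPM in WT tissue, a log2 difference of 9.34 ± 2.28. Both were higher in every tumour than in any WT tissue. SFN, a 14-3-3 protein of keratinocytes, was higher by 9.31 ± 1.74, FABP5, a fatty acid carrier of epidermis, by 5.72 ± 0.81, AQP3, a water and glycerol channel, by 8.04 ± 1.45 and ARG1, an arginase, by 8.86 ± 0.86. RHCG, an ammonium channel of squamous mucosa, was higher by 8.98 ± 0.80 (10.27 without WT replicate 1).

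On the other side, PGM5, a protein of muscle adhesions, had 1.58, 3.64 and 3.2 CPM in DIK tumours, against 282, 663 and 660.2 CPM in WT tissue, a log2 difference of -7.54 ± 0.54, and JPH2, which couples muscle membranes, had 1.58, 2.19 and 1.07 CPM in DIK tumours, against 74, 190.0 and 155 CPM in WT tissue, a log2 difference of -6.4 ± 0.56. In neither gene did the groups overlap. CAV1, the coat protein of caveolae, had a log2 difference of -3.48 ± 0.50 and NTRK2, a neurotrophin receptor, one of -10.35 ± 1.05 (-9.76 without DIK replicate 3).

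The list of liver plasma protein genes, set up after ALB was seen, summed to 31.0, 51.7 and 51.7 CPM in DIK tumours, against 1283, 1528 and 342 CPM in WT tissue. FGB, a fibrinogen chain, had 0.316, 0 and 0 CPM in DIK tumours, against 176, 145 and 3.15 CPM in WT tissue, and TTR, transthyretin, had 0, 0.486 and 0 CPM in DIK tumours, against 14.2, 13.1 and 0 CPM in WT tissue. WT replicates 1 and 2 were close to each other and far above replicate 3 in FGB and TTR. APOA1, the apolipoprotein of HDL, had 22.1, 40.3 and 41 CPM in DIK tumours, against 321, 586 and 318 CPM in WT tissue, so for it replicates 1 and 3 were close. No cause was tested.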
